A study of Homo sapiens with 8 samples.

Results

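The regions described here are the H3K79me2 regions that lay at annotated promoters. They were the rows of the authors' deposited table of H3K79me2 differential regions whose promoter column names at least 1 gene. There were 485 of them among 8746 H3K79me2 regions (5.55%, 95% Wilson interval 5.09 to 6.05) and among 22412 regions of both marks studied. Histone H3 dimethylated (H3K79me2) or trimethylated (H3K79me3) at lysine 79 was profiled by ChIP-seq in MOLM-13, an acute myeloid leukemia cell line that carries an MLL fusion gene. The cells carried shLAMP5-AS1, whose hairpin takes its name from the noncoding RNA antisense to LAMP5, or shNC, the control hairpin. Each condition and mark had 1 ChIP library and 1 input library, 8 libraries in all, from a single cell line with no further genotype, time or agent in the titles. With 1 library per group there is no replicate check and no test of the conditions, and regions do not stand in for replicates.

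The deposited value of each region is a signed score made by the authors, with no unit and with no signal per library, so a value per sample could not be given and the depth of the libraries is unknown. The files and labels do not say which condition a positive score marks as higher. So the text keeps the deposited signs and reads neither a gain nor a loss from them. Intervals on shares cover counting error over regions only. Regions of 1 gene or 1 CpG island share their source and are not independent. Region positions are those of the deposited table, in a build that is not GRCh38. Of 23 markers of other lineages (erythroid, T cell, B cell, epithelial, neural and liver), 0 had an H3K79me2 region, and of 6 myeloid markers 4 had one. Of 34 listed myeloid differentiation genes, however, only 8 had one. These counts are only what a list of differential regions can show, and no lineage is read from them.

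DOT1L is the main enzyme that methylates lysine 79 of histone H3. The mark is laid down with transcription, is usually strongest just downstream of the start site of active genes and thins out along the gene body. In leukemias with an MLL fusion, the fusion protein brings DOT1L complexes to its target genes, HOXA genes among them, and these genes carry unusually broad H3K79 methylation. Many promoters lie in CpG islands, short stretches rich in the dinucleotide CpG, and the flanks of an island are called its shores. The promoter column names 495 genes, out of 3665 genes with an H3K79me2 region at the promoter or in the body. By RefSeq, 471 of the 495 were matched, 435 of them by their current symbol. They were 370 protein-coding genes, 43 lncRNA genes, 33 miRNA genes, 10 snoRNA genes, 13 transcribed pseudogenes and 2 other noncoding genes.

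Promoters of genes with some of the largest scores of each sign are shown first, so that the genes described below can be seen as sequence. LOC101927666 and RPS15AP10, which also rank there, are named only, and of LLPH and SRP9, which tie, the first by symbol is shown. These are RefSeq promoters, 250 bases before to 50 bases after the transcription start, written 5′ to 3′ on the strand of the gene. Because the deposited positions are in another build, the regions cannot be placed within these letters. Capitals mark matches, on either strand, to 8 short motifs: the CCAAT box, the GC box GGGCGG, the ETS core CCGGAAG, the E-box CACGTG, the CRE core TGACG, the TATA box TATAAA, the NRF1 core GCGCATG and the YY1 core AAGATGG. A match is a string of letters, not a shown binding site.
RSRC1, GRCh38.p14 chr3:158109839-158110138, plus strand: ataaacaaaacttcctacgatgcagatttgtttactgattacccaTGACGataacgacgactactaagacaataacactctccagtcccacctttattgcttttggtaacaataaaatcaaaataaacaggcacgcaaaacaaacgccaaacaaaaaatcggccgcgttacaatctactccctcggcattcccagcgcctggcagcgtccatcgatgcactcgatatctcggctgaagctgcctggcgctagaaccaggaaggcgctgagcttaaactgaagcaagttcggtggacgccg
SERTAD3, GRCh38.p14 chr19:40444286-40444585, minus strand: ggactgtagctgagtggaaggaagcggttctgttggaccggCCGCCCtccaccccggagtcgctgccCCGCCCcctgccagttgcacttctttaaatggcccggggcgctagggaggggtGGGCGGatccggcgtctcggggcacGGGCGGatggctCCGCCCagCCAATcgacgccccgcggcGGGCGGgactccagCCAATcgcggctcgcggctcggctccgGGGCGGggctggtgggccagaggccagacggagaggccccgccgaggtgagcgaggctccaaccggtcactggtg
LLPH, GRCh38.p14 chr12:66130701-66131000, minus strand: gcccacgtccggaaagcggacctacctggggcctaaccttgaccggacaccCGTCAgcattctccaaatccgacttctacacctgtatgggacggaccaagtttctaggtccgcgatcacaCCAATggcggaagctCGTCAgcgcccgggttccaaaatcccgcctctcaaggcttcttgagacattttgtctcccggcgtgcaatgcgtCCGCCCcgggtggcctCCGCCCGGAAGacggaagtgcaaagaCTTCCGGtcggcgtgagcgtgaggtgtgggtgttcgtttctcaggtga
SLC20A1, GRCh38.p14 chr2:112645689-112645988, plus strand: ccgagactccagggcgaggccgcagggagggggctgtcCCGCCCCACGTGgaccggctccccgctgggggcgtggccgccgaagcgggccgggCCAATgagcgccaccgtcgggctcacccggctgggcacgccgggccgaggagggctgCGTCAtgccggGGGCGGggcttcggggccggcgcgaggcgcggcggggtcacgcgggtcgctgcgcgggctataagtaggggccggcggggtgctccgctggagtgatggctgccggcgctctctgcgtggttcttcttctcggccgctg
GLMN, GRCh38.p14 chr1:92298938-92299237, minus strand: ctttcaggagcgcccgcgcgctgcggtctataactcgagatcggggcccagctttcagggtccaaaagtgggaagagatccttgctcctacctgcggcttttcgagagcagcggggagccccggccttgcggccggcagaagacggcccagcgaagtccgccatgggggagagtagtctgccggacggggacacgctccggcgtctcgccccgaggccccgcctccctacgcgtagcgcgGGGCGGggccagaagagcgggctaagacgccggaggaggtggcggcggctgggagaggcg

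RSRC1, SERTAD3 and LLPH had positive scores, and SLC20A1 and GLMN negative ones. All 5 promoters were rich in CpG for their GC content, with CpG observed over expected ratios of 1.25 for RSRC1, 0.832 for SERTAD3, 0.991 for LLPH, 0.95 for SLC20A1 and 0.965 for GLMN. GC content differed widely, from 47.0% in RSRC1 and 60.3% in LLPH to 73.0% in SERTAD3 and 77.7% in SLC20A1. The SERTAD3 promoter held 7 GC boxes and 2 CCAAT boxes, while the RSRC1 promoter held 0 GC boxes and 1 CRE core. In LLPH 2 ETS cores and 2 GC boxes were found, and 1 of each shares bases with the other. The SLC20A1 promoter had 2 GC boxes, 1 CCAAT box, 1 CRE core and 1 E-box. None of the 5 held a TATAAA match. The GLMN window holds 1 GC box and also the start of RPAP2, which is transcribed from the opposite strand.

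Promoter regions carried the 2 signs in nearly the proportions of the rest of the table. Of the 485, 223 were positive (46.0%, 41.6 to 50.4) and 262 negative, while 3688 of the 8261 regions outside promoters were positive (44.6%, 43.6 to 45.7). Over all H3K79me2 regions the positive share was 44.7%. The difference, promoters minus the rest, was 1.34 percentage points with an interval of -3.18 to 5.91 that includes 0. The size of the score in the authors' deposited table was also alike, with a median of 10.1 at promoters (quartiles 8.02 and 12.2) and 10.2 outside them (quartiles 8.10 and 12.5). A size of at least 10 was reached by 253 promoter regions (52.2%), against 52.3% over all H3K79me2 regions. The largest size was 23.0 at promoters and 31.5 outside them, and no region of either kind was nearer to 0 than 5.08. Signed scores therefore fall into 2 separate bands, and their median (-6.9 at promoters and -6.95 over all regions) mainly tells which sign was in the majority. The regions were short, with a median of 87 bp between start and end and a range of 67 to 278 bp.

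**Figure D1:**
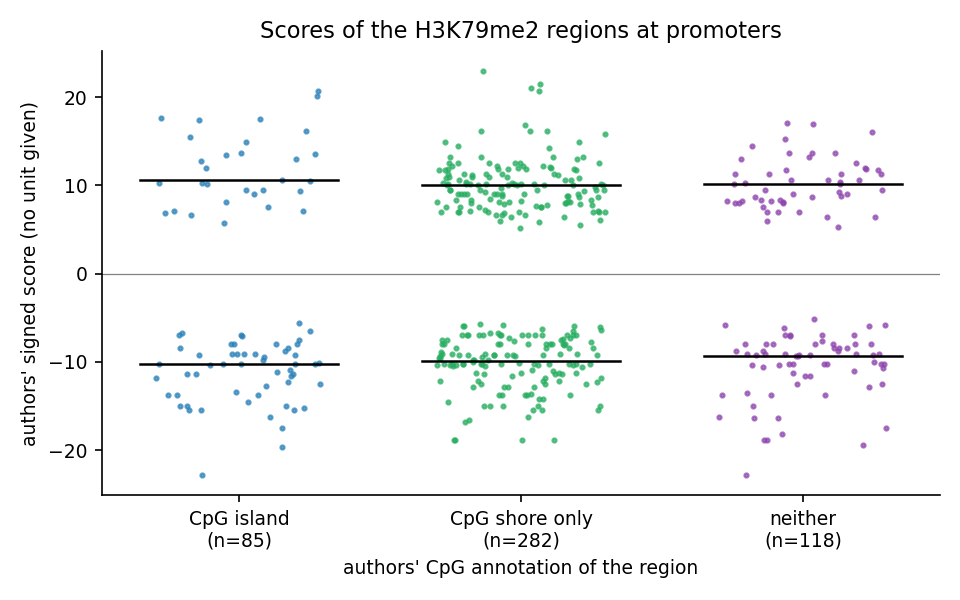
Authors' signed score (no unit) of each of the 485 H3K79me2 promoter regions, 1 point per region, by CpG class. Black lines mark the median of each sign. The scores form 2 bands with none between -5.08 and 5.08, and the largest of either sign reach 23.0 and -22.8.

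CpG islands and shores held most promoter regions. By the authors' CpG columns, 85 promoter regions lay in an island (17.5%, 14.4 to 21.2), 282 in a shore only (58.1%, 53.7 to 62.5) and 118 in neither (24.3%, 20.7 to 28.3). The island count includes 9 regions that fill both columns. Outside promoters the shares were 0.751% island, 9.10% shore only and 90.2% neither. The promoter regions of H3K79me3, 1122 of 13666 regions of that mark, were divided much the same way, with 22.8% in islands, 59.5% in shores only and 17.7% in neither.

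The sign differed between islands and shores more than between promoters and the rest. Of the island promoter regions, 30 of 85 were positive (35.3%, 26.0 to 45.9), of the shore promoter regions 142 of 282 (50.4%, 44.6 to 56.2) and of those in neither 51 of 118 (43.2%, 34.6 to 52.2). Island minus shore came to -15.1 percentage points at promoters (interval -26.0 to -2.98). Outside promoters the same difference was -13.8 points (-25.5 to -0.872), from 24 of 62 positive island regions and 395 of 752 positive shore regions. Within a class, promoters and other regions were close, with promoter minus outside differences of -3.42 points for islands (-19.0 to 11.9), -2.17 for shores (-8.97 to 4.63) and -0.677 for neither (-9.34 to 8.41). Shore minus neither was 7.13 points at promoters, with an interval of -3.58 to 17.5 that includes 0. Island minus neither was -7.93 points at promoters (-20.9 to 5.71) and -5.19 outside them (-16.4 to 7.31), and both intervals include 0. Among shore promoter regions, 62 of 138 on the plus side of the island were positive (44.9%) and 69 of 127 on the minus side (54.3%), with overlapping intervals.

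**Figure D2:**
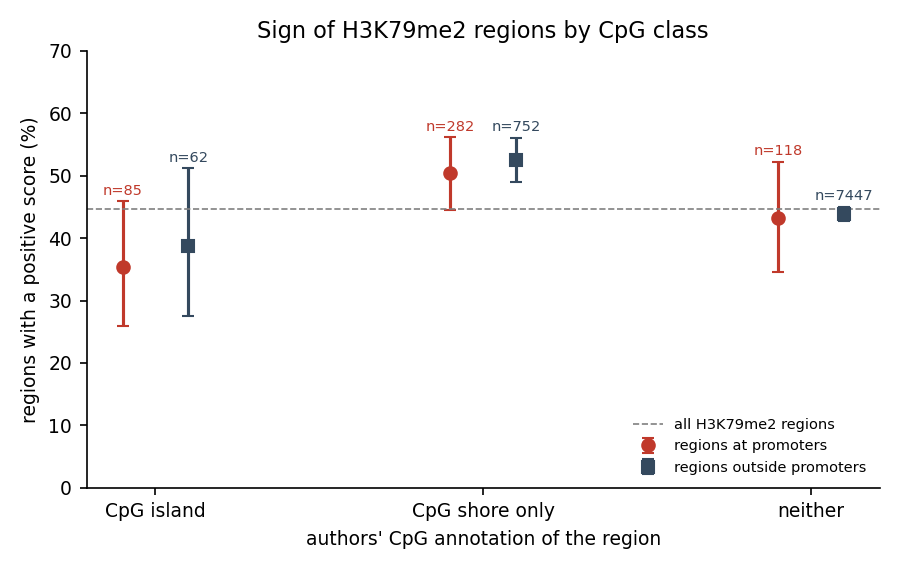
Share of H3K79me2 regions with a positive score (vertical axis, percent) by CpG class, for promoter regions (red circles) and regions outside promoters (blue squares). Bars are 95% Wilson intervals over regions, and the dashed line is the 44.7% of all H3K79me2 regions. Promoter and other regions sit close together in each class, while island regions are lower than shore regions in both.

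Promoter regions did not all lie in the gene they are named for. Of the 485, 176 (36.3%) were annotated in the exons, introns or UTRs of the promoter's own gene only. Another 201 (41.4%) were in those of another gene only, 14 in both and 94 (19.4%) in no gene body. A region named for several promoters counted as in its own gene if it lay in any of the genes named. Island regions were mostly in their own gene (66 of 85, 77.7%), whereas shore regions were mostly in another gene only (159 of 282, 56.4%). A positive score was given to 44.3% of the regions in their own gene, 49.8% of those in another gene and 42.6% of those in no gene body, and the intervals overlap. The 2 kb upstream column was also filled for 380 promoter regions (78.4%), of which 46.3% were positive, against 44.8% of the other 105. Exons were annotated for 17.9% of promoter regions and 3.10% of the rest, 5′ UTRs for 4.12% of promoter regions and 0.242% of the rest, and introns for 69.3% of promoter regions and 91.8% of the rest.

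The largest positive score at a promoter in the authors' deposited table was 23.0, for RSRC1, which encodes an arginine- and serine-rich splicing-related protein. That region lies in a shore outside any gene body (chromosome 3, 157827173 to 157827396), and the second RSRC1 promoter region, 111 bp away, had 16.2 in the authors' deposited table. The noncoding gene LOC101927666 followed with 21.5 in the authors' deposited table, in a shore that lies within DYNLL2 on chromosome 17. SERTAD3, a transcriptional coactivator, had 21.0 in the authors' deposited table (chromosome 19, 40948636 to 40948777) and 8.86 at its other region. LLPH, a nucleolar protein (chromosome 12, 66525132 to 66525201), and SRP9, a subunit of the signal recognition particle (chromosome 1, 225965661 to 225965764, in an island), each had 20.8 in the authors' deposited table. For the homeobox gene HMX2, in an island outside any gene body, the authors' deposited table gave 20.1. Then came MAT2A, the enzyme that makes the methyl donor S-adenosylmethionine, and PARTICL, a noncoding RNA of the same promoter, which share 1 island region with 17.7 in the authors' deposited table. KIAA0100 had 17.5, MRPL33, a protein of the mitochondrial ribosome, 17.4, and GOLGA8O 17.1 in the authors' deposited table. GOLGA8O belongs to a golgin family of near-identical copies, so reads may have been split among them and its region is uncertain.

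On the negative side the largest score at a promoter in the authors' deposited table, -22.8, was shared by SLC20A1 and RPS15AP10. SLC20A1 is a sodium-dependent phosphate carrier, its region lies in an island (chromosome 2, 113403775 to 113403863), and its other region 82 bp away had -13.7 in the authors' deposited table. RPS15AP10 is a ribosomal protein pseudogene inside GPBP1L1, so its region may belong to either, and reads may be shared with other copies. GLMN, an inhibitor of cullin ubiquitin ligases, and RPAP2, a phosphatase of RNA polymerase II, share an island region (chromosome 1, 92764751 to 92764839), for which the authors' deposited table gave -19.6. PNOC, the precursor of the neuropeptide nociceptin, had -19.4 and -10.0 in the authors' deposited table. ANP32A, a nuclear phosphoprotein that inhibits histone acetylation, CLEC11A, a hematopoietic growth factor, DSE, an epimerase of dermatan sulfate, GABPA, an ETS transcription factor, INHBA-AS1 and STAR, a mitochondrial cholesterol transport protein, all had -18.8 in the authors' deposited table. The regions of DSE, GABPA and INHBA-AS1 lay only in other genes, TSPYL1, ATP5J and INHBA. Ties were common, since the 485 promoter regions took only 143 distinct score sizes. The most frequent sizes were 10.19 in 24 regions, 6.95 in 20 and 9.08 in 19, so ranks between neighbouring genes are coarse.

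Most promoters had a single region. Of the 495 genes, 459 had 1 promoter region, 35 had 2 and 1 had 3. Among the 36 genes with several, 15 had positive regions only, 13 negative regions only and 8 both signs. The share with a single sign, 77.8%, is near the 73.3% of same-sign pairs among nearby regions outside promoters. The outer gap between such regions had a median of 421 bp and a range of 82 to 10555 bp. PDE7A, a cyclic AMP phosphodiesterase, was the gene with 3 regions, all positive and within its own body, with 13.0, 10.4 and 16.9 in the authors' deposited table. Genes with 2 negative regions included MGST1, a membrane-bound glutathione transferase (-16.4 and -17.5 in the authors' deposited table). GAS6-AS2 had 2 positive regions, 16.8 and 10.9 in the authors' deposited table. Genes with both signs included CLASP2, GPR27, HNRNPF, IGF2BP2 and SLC16A3. At IGF2BP2, an RNA-binding protein gene and an MLL fusion target, the negative region lay in the island (-7.09) and the positive region in the shore (7.86), as scores of the authors' deposited table.

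Some regions are annotated to more than 1 promoter, 43 to 2 genes and 1 to 5 genes. The region with 5 genes names ZNFX1, ZFAS1 and the snoRNA genes SNORD12, SNORD12B and SNORD12C and scored 10.0 in the authors' deposited table. After GLMN with RPAP2 and MAT2A with PARTICL, the largest were DNM2 with MIR638 (-17.5), ANKMY1 with DUSP28 (16.2) and GATA2 with GATA2-AS1 (-15.5) in the authors' deposited table. DNM2 encodes the membrane fission GTPase dynamin, and GATA2 a transcription factor of blood progenitors. A region of this kind cannot be given to either gene alone.

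The gene lists below are selections, so related genes outside a list can also have promoter regions, and a few of these, chosen after their values were seen, are given beside it. For the promoter counts, 495 of the 3665 genes with an H3K79me2 region had one at the promoter (13.5%). The share of all annotated genes with any H3K79me2 region was not worked out. Counts of listed genes with any region therefore have no background and are not read as results about a list. MLL fusion targets had regions of both signs at their promoters. Of 28 genes on this list, 23 had an H3K79me2 region and 7 had one at the promoter, with 3 positive only, 3 negative only and 1 of both signs. HOXA5, a homeobox gene, had -15.5 and HOXA11 -10.1 in the authors' deposited table, both in islands. MEF2C, a MADS-box transcription factor, had 10.2 and JMJD1C, a jumonji-domain protein, 8.13 in the authors' deposited table. The regions of HOXA11 and JMJD1C lay only in their antisense genes HOXA11-AS and JMJD1C-AS1. The list's 8 promoter regions were 4 positive and 4 negative, set beside the 44.7% positive share of all H3K79me2 regions. Within the HOXA cluster, counted after its values were seen, 6 of 10 genes with any region had one at the promoter. Their 6 promoter regions were 3 of each sign. The negative regions were at HOXA5 with HOXA-AS3 (1 shared region), at HOXA-AS3 (-6.68 in the authors' deposited table) and at HOXA11. The positive ones were at HOTTIP, the noncoding RNA at the distal end of the cluster, and MIR196B, both 15.0 in the authors' deposited table. The other was at HOXA6 (7.03 in the authors' deposited table). Each of these positive regions lay only in another gene. That of HOTTIP lay in HOXA13, that of MIR196B in HOXA10-AS and HOXA10-HOXA9, and that of HOXA6 in HOXA-AS3.

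DOT1L and the elongation complexes had no region at a promoter in 31 genes, although 13 of the 31 had one in a gene body. The same held for 25 housekeeping genes (10 with a region), 40 listed histone and chaperone symbols (12 with a region), and LAMP5 with LAMP5-AS1, of which 1 had a region. Outside that list, the histone gene HIST1H2BF had 12.5 and 10.2, the chaperone gene DNAJB11 -10.1 and the cochaperone gene BAG2 15.9 at their promoters in the authors' deposited table. The list of chromatin modifiers had 2 promoter genes of 70 (44 with any region). These were ARID2, a subunit of the PBAF remodelling complex, with -10.2, and EZH2, the methyltransferase of Polycomb repressive complex PRC2, with 5.53 in the authors' deposited table. Related genes outside the list were positive at ASH1L (8.10), BRD1 (9.46) and INO80D (10.0), and negative at SMARCC2 (-8.44), SETDB2 (-8.0) and RUVBL2 (-13.6), in the authors' deposited table. The list of general transcription and Mediator genes had 3 of 43 (23 with any region), which were POLR2B, a core subunit of RNA polymerase II (10.7), the initiation factor GTF2B (10.3) and the Mediator subunit MED17 (-9.08), in the authors' deposited table. MED19, a Mediator subunit outside the list, had -16.6 in the authors' deposited table, in a region that lies within TMX2. Splicing genes and helicases had 7 of 64 (34 with any region), 3 positive and 4 negative. Among them were SRSF7 (-13.5), HNRNPU (11.2), CELF1 (10.7) and CELF2 (-10.2) in the authors' deposited table. Listed ribosomal proteins and translation factors had 7 of 75 (22 with any region), 3 positive and 4 negative. The largest on the list were RPL4 (-16.2), EIF6, which keeps ribosomal subunits apart (12.0), RPS25 (11.3) and EIF4G1, the scaffold of the cap-binding complex (-9.17), in the authors' deposited table. Outside the list, EIF2A had -12.3, RPL28 -8.02 and EIF4E3 -6.95 in the authors' deposited table. The regions of RPL4 and RPS25 lay in the neighbouring genes ZWILCH and TRAPPC4. Those of HIST1H2BF, DNAJB11, BAG2 and EIF2A also lay only in another gene. Regions also named for another promoter were those of ARID2 (with LINC00938), POLR2B (with NOA1), EIF6 (with FAM83C-AS1), RPL28 (with TMEM238) and SETDB2 (with CAB39L).

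Growth and repair genes were as mixed. The ubiquitin system had 4 promoter genes of 68 (55 with any region), 1 positive and 3 negative. These were MDM2, the ligase of p53 (10.2), SKP1 (-8.0), FBXW7 (-7.53) and RNF111 (-7.53) in the authors' deposited table. Cell cycle and apoptosis genes had 4 of 60 (28 with any region), 2 of each sign. They included MXI1, an antagonist of MYC (13.7), and ANAPC1, a subunit of the anaphase-promoting complex (-10.4), in the authors' deposited table. MDM2 and APAF1, the scaffold of the apoptosome (-6.91 in the authors' deposited table), were the others. DNA repair and replication genes had 5 of 65 (34 with any region), 3 positive and 2 negative. LIG4, a ligase of end joining, had -15.0, ERCC3 11.3 and XPC 10.3, both of nucleotide excision repair, and XRCC4, the partner of LIG4, 10.1 in the authors' deposited table. The LIG4 region is also named for ABHD13. The XRCC4 region is also named for TMEM167A, in whose intron it lies. Neither can be given to the repair gene alone, and the regions of XPC, FBXW7 and APAF1 lay only in another gene. Of 34 myeloid differentiation genes 8 had a region and 1 had it at the promoter, MPO, which encodes the granule enzyme myeloperoxidase (13.2 in the authors' deposited table). The median signed score of the promoter regions was -0.03 for MLL fusion targets, -6.95 for splicing, -5.63 for translation, -2.33 for chromatin modifiers, 10.3 for general transcription and Mediator, 13.2 for the single myeloid region, -7.53 for the ubiquitin system, 1.64 for cell cycle and apoptosis and 10.1 for DNA repair, against -6.9 over all promoter regions. With 8 promoter regions or fewer in each list, these medians mostly record which sign was in the majority.

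Families of genes were also counted, after their values were seen. Of 48 miRNA genes with an H3K79me2 region, 34 had it at the promoter (70.8%, against 13.5% of all genes with a region), in 36 regions of which 16 were positive and 20 negative. Their scores lay between -17.5 and 15.0 in the authors' deposited table. For snoRNA and scaRNA genes it was 12 of 12, in 10 regions of which 6 were positive and 4 negative. Among genes named as antisense it was 26 of 66 (39.4%), with 28 promoter regions, 9 positive and 19 negative. For LINC genes it was 7 of 15 (46.7%), with 8 promoter regions, of which 2 were positive. For mitochondrial ribosomal protein genes it was 7 of 19 (36.8%), with 4 positive and 3 negative regions. For cytosolic ribosomal protein genes it was 6 of 16 (37.5%), with 2 positive and 4 negative regions. For zinc finger genes of the ZNF, ZSCAN and ZKSCAN families it was 11 of 71 (15.5%), with 11 regions, of which 8 were positive. Of all 485 promoter regions 46.0% were positive, and no test was made for any family. A miRNA gene often lies inside a host gene, and its region may then belong to the host. Genes of miRNAs and snoRNAs are also short, with little body for a region to fall in. Their promoter shares are therefore not comparable with the 13.5% of all genes. Gene length was not taken into account for the other families either, so their shares are not read against the 13.5%.

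Mature sequences from RefSeq are shown for a few of the better known miRNAs, among them MIR326, which had 2 regions, with the seed (bases 2 to 8) in capitals. Of the 44 mature sequences examined, from 29 genes, only 1 seed was found more than once, AGCAGCA in miR-15a-5p and miR-16-5p.
hsa-miR-15a-5p: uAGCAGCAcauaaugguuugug
hsa-miR-16-5p: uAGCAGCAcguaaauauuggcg
hsa-miR-142-3p: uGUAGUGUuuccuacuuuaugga
hsa-miR-142-5p: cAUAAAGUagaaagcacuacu
hsa-miR-196b-5p: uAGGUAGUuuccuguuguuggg
hsa-miR-301a-3p: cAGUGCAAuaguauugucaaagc
hsa-miR-326: cCUCUGGGcccuuccuccag

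MIR15A and MIR16-1, neighbours on chromosome 13 that act against BCL2, were named for the same region, with -8.41 in the authors' deposited table. MIR142, a miRNA gene of blood cells, had 12.0 in the authors' deposited table, and MIR196B, which lies in the HOXA cluster, 15.0. MIR301A had -10.2 and MIR326 had -13.7 and -11.6 in the authors' deposited table. The only repeated seed, AGCAGCA, belongs to miR-15a-5p and miR-16-5p, whose genes share a region, so seeds could not be compared between signs.

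Only a few promoter regions shared bases with a region of the other mark. Of the 485, 16 (3.30%) overlapped an H3K79me3 region by at least 1 bp, against 142 of 8261 regions outside promoters (1.72%). Nearly all H3K79me3 regions are negative (97.5% of 13666), so the sign of a pair mostly follows the H3K79me2 sign. In 10 pairs H3K79me2 was positive and H3K79me3 negative, in 5 both were negative, and in 1, at VEGFB, H3K79me2 was negative and H3K79me3 positive. VEGFB, a vascular growth factor gene, had an H3K79me2 score of -15.3 and an H3K79me3 score of 99.5 in the authors' deposited tables, in regions that share 95 bp (H3K79me2 region at chromosome 11, 64001856 to 64001965). SLC20A1 had -22.8 for H3K79me2 and -9.51 for H3K79me3 in the authors' deposited tables. Opposite signs were found at GOLGA8O (17.1 for H3K79me2 and -10.2 for H3K79me3), GPR27, an orphan receptor (12.2 and -14.2), and CEBPG, a bZIP transcription factor (10.0 and -8.41), in the authors' deposited tables. They were also found at LOC101929897 (12.0 and -15.0), MIR6821 (9.52 and -12.5) and LINC01004 (8.72 and -8.32), again with H3K79me2 before H3K79me3 in the authors' deposited tables. LOC100129518 (-10.4 and -11.3) and MIR3619 (-9.09 and -9.51) were negative in both of the authors' deposited tables. By gene symbol rather than by position, 94 genes had a promoter region of both marks, which is 19.0% of the 495 genes of H3K79me2 and 9.63% of the 976 of H3K79me3. The matching share over all genes was not worked out, so these gene shares have no background. The 2 scores of a pair come from separate tables and their sizes are not compared.

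**Figure D3:**
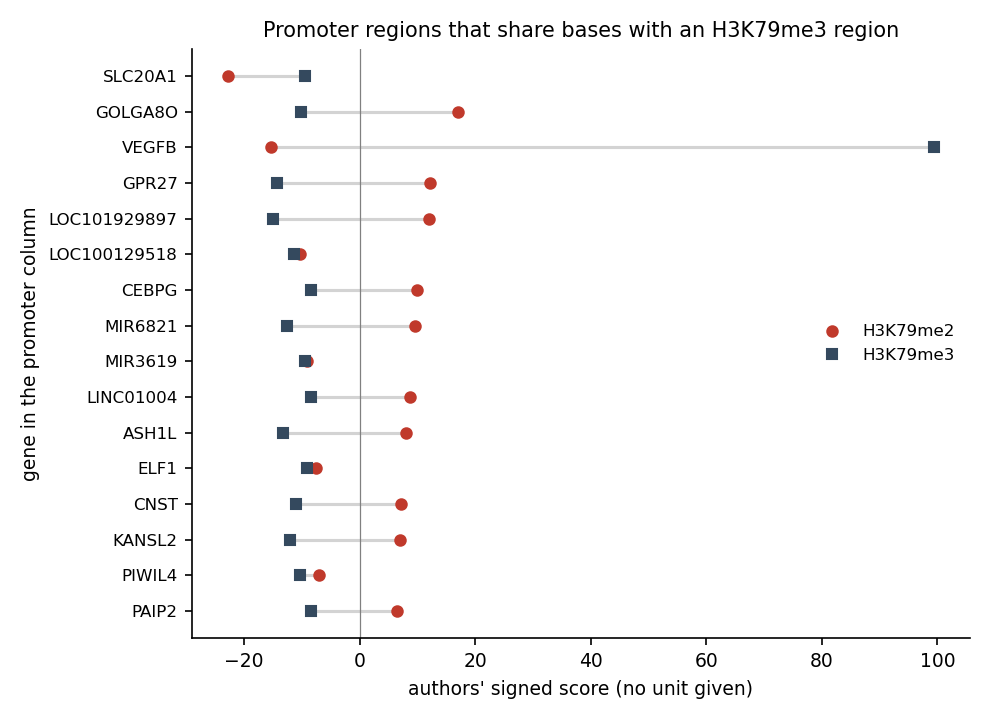
Authors' signed scores (no unit) of H3K79me2 (red circles) and H3K79me3 (blue squares) for the 16 promoter regions that share bases with an H3K79me3 region, 1 row per region, ordered by the size of the H3K79me2 score. H3K79me3 is negative in all but VEGFB, where it reaches 99.5, while H3K79me2 is positive in 10 of the 16.

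The sign at a promoter was set beside the sign of the other H3K79me2 regions in the same gene. Of the 495 genes, 169 also had regions in the gene body away from promoters and 326 had none. Among the 72 genes with positive promoter regions only, 33 had mostly positive body regions (45.8%, 34.8 to 57.3), 35 mostly negative and 4 equal numbers. Among the 94 genes with negative promoter regions only, 21 had mostly positive body regions (22.3%, 15.1 to 31.8), 67 mostly negative and 6 equal numbers. Genes with body regions and no promoter region had mostly positive ones in 1194 of 3054 (39.1%, 37.4 to 40.8). Counted by region, 168 of 261 body regions were positive under positive promoters (64.4%) and 72 of 230 under negative promoters (31.3%). Over genes with 10 or fewer body regions the shares were 55.5% under positive and 33.0% under negative promoters. GAB2, a signalling adaptor, had 21 body regions, RSRC1 19 and PDE7A 18, all positive as at their promoters. TNFAIP8, a regulator of apoptosis, had a negative promoter region and 12 body regions, all negative. TPD52 went the other way, with a negative promoter region and 9 of 10 body regions positive, and JMJD1C had a positive promoter region and 5 of 13 body regions positive. Both readings come from the same pair of libraries.

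**Figure D4:**
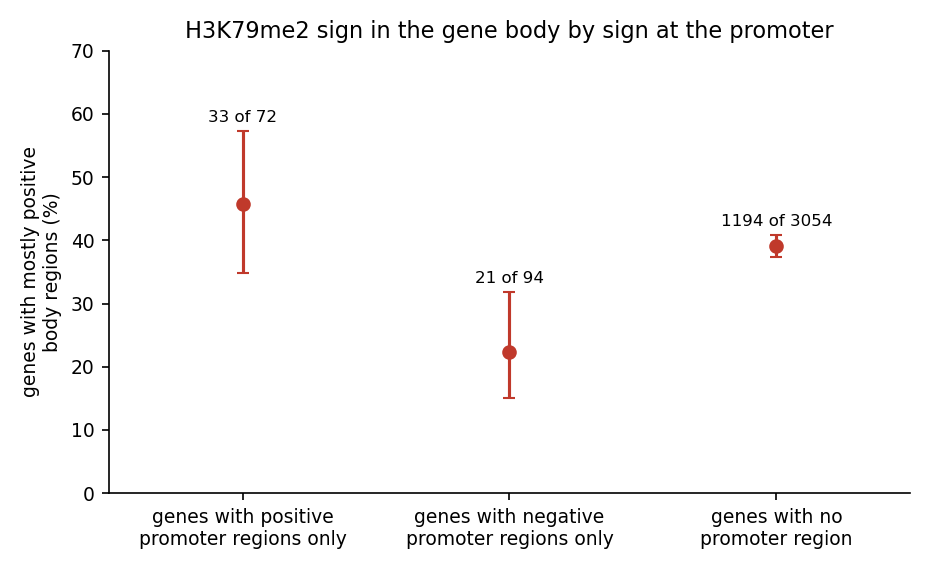
Share of genes with mostly positive H3K79me2 body regions (vertical axis, percent) for genes with positive promoter regions only, genes with negative promoter regions only, and genes with body regions but no promoter region. Points are shares with 95% Wilson intervals over genes, and the numbers give the counts. The share is 45.8% under positive promoters and 22.3% under negative ones, with 39.1% in genes with no promoter region.

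The sign of the nearest region was compared at promoters and elsewhere. The nearest other H3K79me2 region lay at a median of 10.6 kb from a promoter region, against 5.96 kb for regions outside promoters. It was within 5 kb for 186 promoter regions, and 131 of these pairs had 1 sign (70.4%, against 73.3% outside promoters).

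RefSeq promoters were available for 355 of the 495 genes. For protein-coding genes with a promoter region, 553 promoters of 319 genes, the median GC content was 62.7%, against 62.3% over all 22199 protein-coding promoters. The median CpG observed over expected ratio was 0.811, against 0.737. The GC box GGGCGG was found in 61.1% of the promoters of these genes and 56.3% of all. The ETS core CCGGAAG was in 19.7% of theirs and 12.8% of all, and the CRE core TGACG in 35.4% of theirs and 27.9% of all. Shares were closer for the CCAAT box (34.0% of theirs and 34.7% of all), the E-box CACGTG (8.86% of theirs and 8.34% of all) and the NRF1 core GCGCATG (3.98% of theirs and 5.26% of all). They were 8.5% of theirs and 6.04% of all for the YY1 core AAGATGG, and 7.59% of theirs and 9.47% of all for the TATA box TATAAA. Both strands were searched, and overlapping matches of different motifs were each counted. No test was made, since promoters of 1 gene overlap.

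**Figure D5:**
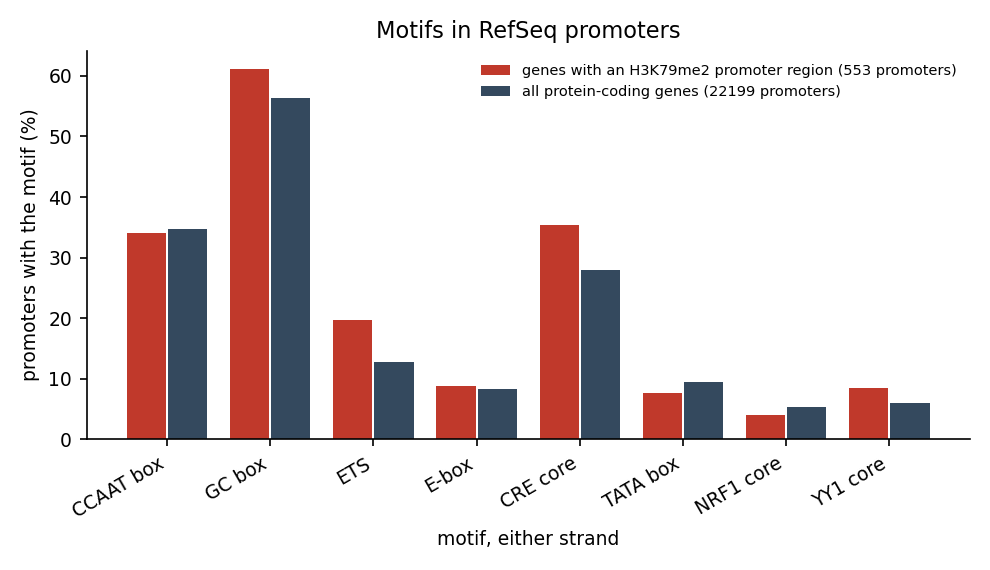
Share of RefSeq protein-coding promoters (vertical axis, percent) that hold each motif on either strand, for genes with an H3K79me2 promoter region (red, 553 promoters) and for all protein-coding genes (blue, 22199 promoters). ETS and CRE cores are more frequent in the red bars (19.7% and 35.4%) than in the blue ones (12.8% and 27.9%).

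The sequence of the promoters was also set beside the CpG classes of the regions, which come from the authors' annotation. Islands are by definition rich in CpG, so the order of the GC contents and CpG ratios largely follows from the classes. Only protein-coding genes were counted, by class and by sign. There were 91 promoters of 67 genes with island regions only, 320 of 194 with shore regions only and 128 of 53 with neither. Promoters of genes with island regions only had a median GC content of 66.0% and a CpG ratio of 0.905. Those with shore regions only had 63.3% and 0.829, and those with neither 52.8% and 0.475. A TATA box was found in 8.79% of the island group, 4.38% of the shore group and 14.8% of the group with neither. By sign the promoters were alike in GC content, with a median of 62.8% for genes with positive regions only and 62.7% for genes with negative regions only. The CpG ratio was 0.86 under positive and 0.784 under negative regions, and the ETS core was found in 23.2% of promoters under positive and 17.4% of those under negative regions. These are descriptions of letters in a window that need not contain the H3K79me2 region itself.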

How the data were processed

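H3K79me2 and H3K79me3 ChIP-seq tables of MOLM-13 cells were used, with shLAMP5-AS1 against shNC and 1 library per group. Titles and the cell type field set the groups. The treatment field names KLF11 and YAP siRNA and the growth field a xenograft-derived culture, and these were not followed. Per the submitters' processing notes the authors' tools include Bowtie2, MACS2 2.1.1, bedtools and DESeq2, with GRCh38, hg38 and hg19 as builds; their roles are not given in the sources used here. The score of each region is the value the authors deposited, without a unit; its sign matched the sign in the region's name in every row (0 exceptions in 8746). The tables hold called regions only, with no read totals.

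Of 419 promoter regions with 1 matched gene, 418 lay on that gene's GRCh38.p14 chromosome but only 45 within 5 kb of its bounds, so RefSeq was used for names, gene types and sequences, never to place regions.

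Regions were counted with Python 3.11.15, pandas 2.3.3, numpy 2.4.6 and matplotlib 3.10.9. Shares have 95% Wilson intervals and differences Newcombe intervals, over regions; the counting was tested on simulated tables. A region filling both CpG columns counts as island. Named genes are those of the 10 largest scores of each sign, those with 3 or more promoter regions, up to 4 per gene list, the 10 largest that overlap H3K79me3 and the 5 largest annotated to several promoters. Other genes named were chosen after their values were seen. The members and lists were chosen with earlier results of these data known. Alternatives were autosomes only, a score size of at least 10, the 2 kb upstream column added, 1 region per gene or per CpG island, regions naming 1 gene, and other overlap rules.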

Additional observations from a re-analysis of the deposited data

How the results depend on the processing

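Of 51 recomputed values, 46 stayed within the counting interval of the main value, or within 1.5 times the main count. With only scores of a size of at least 10, the median size was 12.0, which follows from the cutoff itself. The number of promoter genes was then 268 and the number of overlaps with H3K79me3 7, which follows from fewer regions. Reciprocal overlap of 50% also left 7 overlaps, and counting shared promoter gene symbols gave 94. The positive share stayed between 45.1% and 46.6% at promoters, between 34.3% and 36.5% in islands and between 40.0% and 44.8% in neither. Adding the 2 kb upstream column could change nothing, since 0 regions outside promoters fill it. Autosomes only left out just 5 promoter regions, those of chromosome X. The values of both settings are among the 46 and say little about stability. Shore minus neither over all H3K79me2 regions, added after the data were seen, was 8.05 points (4.8 to 11.3), and between 6.11 and 8.72 in its alternatives. No paired analysis was possible because each group holds 1 sample, and for the same reason no replicate could be left out. The tables give no depth, so how precise a single region is cannot be said.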

Other observations

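Promoter regions were spread unevenly over chromosomes. They made up 11.8% of the H3K79me2 regions on chromosome 19 (32 of 272) and 9.07% on chromosome 17, against 3.26% on chromosome 6 and 3.37% on chromosome 2. On chromosome 17, 24 of 32 promoter regions were positive (75.0%, 57.9 to 86.8), while 44.9% of the regions outside promoters there were. LOC101927666, KIAA0100, BAHCC1, MPO, MIR142, SMYD4, MRPL10 and KANSL1 were among the genes with positive promoter regions. Chromosome 5 also had 75.0% positive promoter regions (18 of 24, 55.1 to 88.0), against 60.2% outside promoters. Chromosome 15 had 20.0% (4 of 20, 8.07 to 41.6), against 41.4% outside promoters, and chromosome 14 16.7% (2 of 12), against 41.0%. These chromosomes were picked from 23 after their values were seen, and no test was made.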
